A study of Homo sapiens with 4 samples.

Results

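Lu139 is an established human small cell lung cancer cell line, and this account describes its transcripts after knockdown of TTF-1, the thyroid transcription factor encoded by NKX2-1. The comparison rests on 2 of the 4 arrays of the study, 1 array of Lu139 cells electroporated with control siRNAs (siNTC) and 1 of Lu139 cells that received siRNAs against TTF-1 instead (siTTF-1). Both were chosen by their titles. The other 2 arrays hold the same pair of siRNAs in a second small cell lung cancer line, NCI-H209, and are set beside Lu139 where they show how its pattern differs. All 4 groups shared the electroporation, at 200 V and 950 μF, and total RNA was measured on Affymetrix arrays of 54675 probe sets. The sources used here do not give the siRNA sequences, how many siRNAs each mix held, or the time from electroporation to harvest. With 1 array per group there was no replicate and no test, so differences are given by their size alone, and the small number of arrays sets the limit to how precise any value can be. In RNA from whole cultures, fewer cells with a transcript and less of it in each cell cannot be told apart.

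TTF-1 is a homeodomain transcription factor of the NK2 family that is needed for the formation of lung and thyroid, and in the adult lung it drives surfactant genes of the alveolar epithelium. It is also present in most small cell lung cancers, a neuroendocrine tumour whose cells make secretory granules, neuropeptides and neuronal cytoskeleton under the control of factors such as INSM1. An siRNA acts through the breakdown of its target's messenger RNA, so the level of NKX2-1 is the direct readout of the knockdown, and other transcripts are read relative to it.

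Differences are siTTF-1 minus siNTC on the scale log2(intensity + 18.7), where 18.7 was the lower quartile of all values of the 4 arrays. This addition keeps dim, noisy probe sets from giving large folds and understates the change of dim genes. A gene was read from its brightest probe set and called expressed in Lu139 where its mean over both arrays was above an intensity of 37.0, the 40th percentile. Of 19775 genes with a value, 13996 were expressed in Lu139, 14632 in NCI-H209 and 13306 in both. The line carried the markers of its labelled type on the control array, with intensities of 4750 for INSM1, 1952 for CHGA, which encodes the granule protein chromogranin A, and 9663 for UCHL1. SYP, a marker of the same list, was dim, at 77.2. Of 9 small cell markers, 7 had a value and all 7 were expressed, with a summed intensity of 27949 after siNTC and 29732 after siTTF-1. The other 2 are not analysed here. Some markers of other cells were below the expression limit, among them YAP1 of non-neuroendocrine lines, POU2F3 of tuft-like lines, PTPRC of leukocytes and CDH5 of endothelium. Others were above the limit, as COL1A1 of fibroblasts at 333 and VIM of non-neuroendocrine lines at 150 after siNTC. Summed over the members above it, after siNTC and siTTF-1, the intensities were 335 and 335 for 3 of 6 tuft-like markers, 323 and 318 for 4 of 9 non-neuroendocrine, 398 and 462 for 3 of 7 fibroblast, 158 and 204 for 2 of 5 endothelial and 106 and 124 for 2 of 7 leukocyte markers. Their part in the results was not tested.

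NKX2-1 itself was lower after siTTF-1 on both of its probe sets. On 211024_s_at its intensity was 780 after siNTC and 461 after siTTF-1, or 59.1% of control, a log2 difference of -0.74. The second probe set, 210673_x_at, read 400 and 221, a difference of -0.80. On 211024_s_at the difference of NKX2-1 was the 59th lowest of the 13996 expressed genes of Lu139. Over these genes the SD was 0.189 and the lowest difference was -1.45. The target thus lay in the lower tail, with some genes lower still. In NCI-H209 the brighter probe set read 596 and 243, a difference of -1.23. The median over both probe sets was -0.90 there, against -0.77 in Lu139. The second probe set was thus less low in NCI-H209 than in Lu139, and which line had the deeper knockdown depended on the probe set.

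Most of the transcriptome of Lu139 lay close together on both arrays. The median difference over expressed genes was 0.03 and the SD was 0.189, against 0.274 in NCI-H209. In Lu139, 12150 genes (86.8%) lay within 1.2-fold of control, against 76.3% of genes in NCI-H209. Genes with any lower value made up 40.7% and those with any higher value 57.7% of the expressed genes, and 225 genes had exactly equal intensities. At 1.5-fold, 131 genes were lower (0.936%) and 27 were higher (0.193%). The same limit held 3.52% and 1.09% of the genes of NCI-H209. At 2-fold, 6 genes were lower (0.0429%) and 1 was higher (0.00714%). Just inside and outside that limit were TRIM24 at -1.02 and ZNF721 at -0.99 on the lower side, and CDKN1A at 1.01 and WASF3 at 0.97 on the higher side. Split by brightness into 5 groups of about 2800 genes, the dimmest had a median of 0.08 and the brightest one of 0.02, so a small positive median was shared by dim genes in general.

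**Figure D1:**
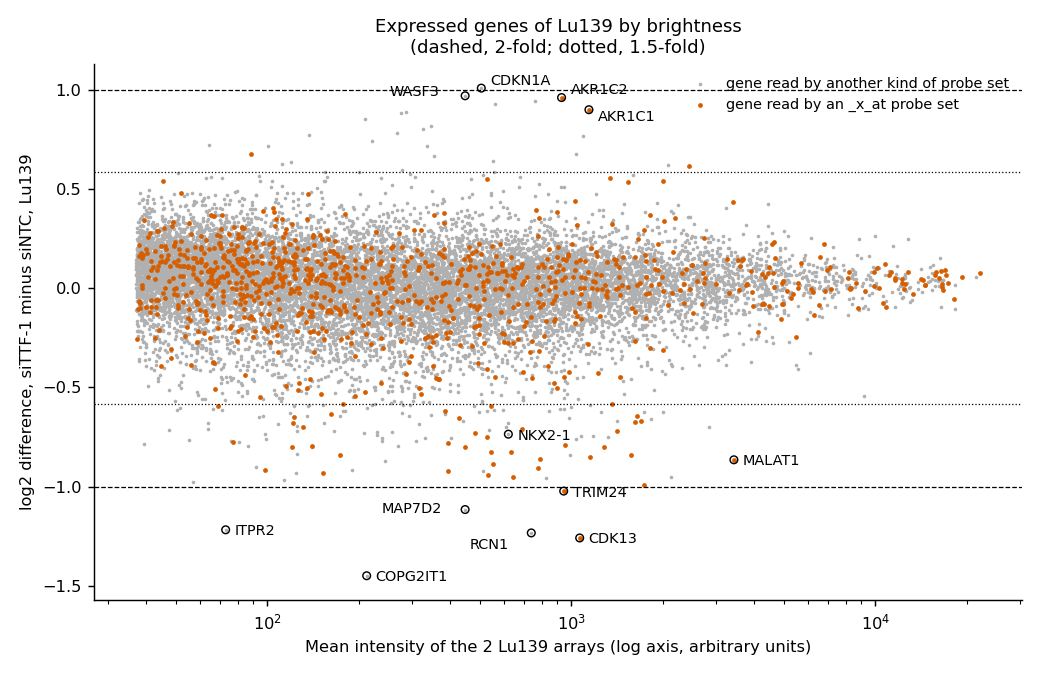
Log2 difference of each of the 13996 expressed genes of Lu139 (vertical axis) against the mean intensity of both Lu139 arrays (horizontal log axis, arbitrary units), with genes read by a probe set of the kind _x_at in orange. The bulk lies within the dotted 1.5-fold lines, 6 genes lie under the lower dashed 2-fold line and 1 above the upper one, and orange points are frequent among the low genes.

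Of the 6 genes past 2-fold, RCN1, MAP7D2 and TRIM24 were lower in NCI-H209 as well, with larger differences there. RCN1, which encodes reticulocalbin, an EF-hand protein of the endoplasmic reticulum lumen that binds calcium, read 1043 after siNTC and 433 after siTTF-1, or 41.5% of control, a difference of -1.23 in Lu139 and -1.80 in NCI-H209. MAP7D2, which encodes a microtubule-binding protein of neurons that recruits kinesin, read 619 and 276, a difference of -1.12 in Lu139 and -2.04 in NCI-H209. TRIM24, a bromodomain protein and nuclear receptor cofactor of the TIF1 group, read 1271 and 616, a difference of -1.02 against -1.53. In each of these genes the siTTF-1 array of Lu139 held under 50% of the control intensity on the probe set used, and the difference in NCI-H209 was larger. TRIM24 was lower on all 3 of its expressed probe sets, by -1.03 to -0.51, while RCN1 and MAP7D2 had 1 expressed probe set each.

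Further genes between 1.5-fold and 2-fold lower in Lu139 were lower in NCI-H209 too. NAB1 encodes a corepressor of the EGR transcription factors. It read 1094 and 556, a difference of -0.95 in Lu139 and -1.27 in NCI-H209, and was lower on each of 3 probe sets. SAMHD1, the phosphohydrolase that degrades deoxynucleotide triphosphates, read 521 and 266, a difference of -0.92 against -1.56, and all 5 of its expressed probe sets were lower. ELOVL2, an elongase of very long polyunsaturated fatty acids, read 675 and 348, and its differences in both lines were close, at -0.92 and -0.97. DSE, the epimerase that turns chondroitin into dermatan sulfate, read 254 and 126, a difference of -0.91 against -1.38. KRCC1 was dim in Lu139, at 205 and 98.7, and lower on 3 of 3 probe sets, with -0.93 against -1.61. TMEM38B, the trimeric cation channel of the endoplasmic reticulum membrane, had differences of -0.87 to -0.76 on 3 probe sets of different kinds, so its value did not rest on 1 probe design. BIRC5, which encodes survivin of the chromosomal passenger complex, read 3505 and 2153, a difference of -0.70 against -1.02, and was lower on 4 of 4 probe sets.

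MAP7D2 and ELOVL2 are shown by the 250 bases before their annotated transcription starts, because each holds a match to a core sequence that NK2 homeodomain proteins bind. Sequences are from RefSeq, build GRCh38.p14, written 5′ to 3′ on the strand of the gene, with the match in capitals. The MAP7D2 window is at chrX:20116641-20116890, minus strand and its capitals mark CTCAAG. The second annotated start of MAP7D2 has no such match. The ELOVL2 window is at chr6:11044306-11044555, minus strand and its capitals mark CACTTG, the reverse complement of CAAGTG.
MAP7D2: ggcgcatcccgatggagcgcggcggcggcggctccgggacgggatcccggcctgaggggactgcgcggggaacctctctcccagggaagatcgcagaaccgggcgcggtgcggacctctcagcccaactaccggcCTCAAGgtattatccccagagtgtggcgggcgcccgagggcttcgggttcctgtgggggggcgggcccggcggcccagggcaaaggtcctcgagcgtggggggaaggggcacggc
ELOVL2: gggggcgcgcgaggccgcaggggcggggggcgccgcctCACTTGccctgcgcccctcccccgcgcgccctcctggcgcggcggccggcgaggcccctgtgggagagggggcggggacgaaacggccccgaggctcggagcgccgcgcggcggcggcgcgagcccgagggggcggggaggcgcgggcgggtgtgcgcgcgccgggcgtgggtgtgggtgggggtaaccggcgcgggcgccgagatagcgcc

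**Figure D2:**
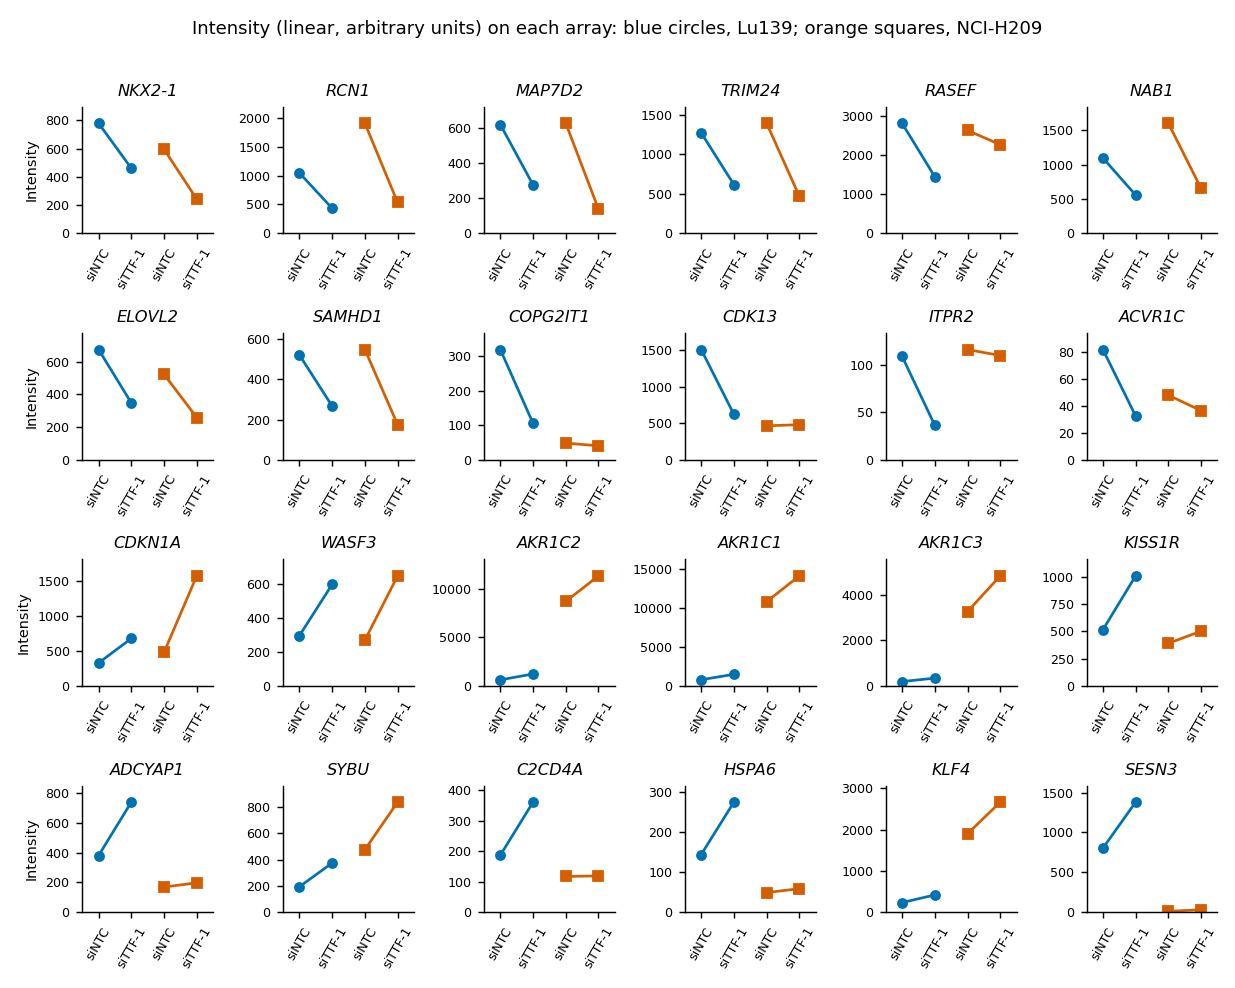
Intensity (linear scale, arbitrary units, each panel from 0 with its own maximum) of 24 genes on each of the 4 arrays, siNTC and siTTF-1 joined by a line, Lu139 as blue circles and NCI-H209 as orange squares, 1 array per point. The 12 genes of the upper rows are lower after siTTF-1 in Lu139 and the 12 below them higher, and the lines of COPG2IT1, CDK13 and ITPR2 are steep in Lu139 alone.

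Other genes were low in Lu139 with a smaller difference in NCI-H209. COPG2IT1, an imprinted noncoding transcript inside COPG2, had the lowest difference of all, with 319 after siNTC and 105 after siTTF-1 (-1.45), against -0.18 in NCI-H209, where it read 48.0 and 40.2. ITPR2, an inositol trisphosphate receptor that releases calcium from the endoplasmic reticulum, read 109 and 36.4 on its brightest probe set, a difference of -1.22 against -0.07. Its other expressed probe sets differed by -0.71 and -0.03, so its probe sets did not give 1 size. RASEF, a Rab-type GTPase with calcium-binding motifs, read 2804 and 1443, a difference of -0.95 against -0.21. Its second bright probe set differed by -1.03, while a dim one read 93.4 on both arrays.

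LIFR, the receptor of leukemia inhibitory factor, read 1279 and 707, a difference of -0.84 against -0.25, and each of its 4 expressed probe sets was lower by -0.94 to -0.62. ACVR1C, the type I receptor ALK7 of the activin and nodal pathway, read 81.7 and 32.4, a difference of -0.97 against -0.27. PCDH17, a protocadherin of neurons, had -0.83 to -0.74 on 3 probe sets, against -0.30 on its brightest one in NCI-H209. SLIT2, the axon guidance ligand of ROBO receptors, read 329 and 226 on its brightest probe set (-0.50) and was lower by -0.81 and -0.87 on the others. ASXL3, a Polycomb-associated scaffold, had -0.97 and -0.94 on 2 probe sets and -0.01 on another, and in NCI-H209 its brightest one read 247 and 176 (-0.44).

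Some genes were above the expression limit in Lu139 and not in NCI-H209. Of 690 such genes, 17 (2.46%) were at least 1.5-fold lower and 1 was higher, against 114 (0.857%) and 26 of the 13306 genes expressed in both lines. The lowest were FAT3, an atypical cadherin, at 169 and 79.5 (-0.93), RORB, an orphan nuclear receptor, at 125 and 58.4 (-0.90), and MIR181A2HG, a microRNA host transcript, at 107 and 54.5 (-0.78). NEFL, the light neurofilament chain, was brighter, with 1309 after siNTC and 766 after siTTF-1, a difference of -0.76, and was lower on 3 of 3 probe sets. CALD1, GUCY1A2 and IGF2BP2 followed with -0.74, -0.73 and -0.73. CALD1 encodes caldesmon, an actin-binding protein, GUCY1A2 a subunit of the nitric oxide receptor guanylate cyclase, and IGF2BP2 an RNA-binding protein. SESN3, a stress-induced sestrin, was the 1 higher gene, at 803 and 1381 (0.77), but its other expressed probe sets differed by -0.11 and -0.12. In NCI-H209 SESN3 read 10.7 and 31.4 on the same probe set, below the limit but also a difference of 0.77. ADCYAP1R1, the receptor of the peptide PACAP, read 113 and 166 (0.48), and FGF19, a hormone-like fibroblast growth factor, read 49.2 and 81.4 (0.56). The median intensity of the 690 genes was 52.1, against 253 for genes expressed in both.

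Part of the low genes of Lu139 were read by a particular kind of probe set. A probe set whose name ends in _x_at holds probes that can hybridise with other transcripts, while _at marks probes designed for 1 transcript. In Lu139, 4.93% of 3040 expressed _x_at probe sets were at least 1.5-fold lower, against 1.51% of 18949 _at and 0.736% of 8558 _s_at probe sets. NCI-H209 had the other order, with 1.87% of _x_at and 3.68% of _at probe sets. Among genes, _x_at probe sets read 7.09% of those expressed in Lu139 and 39 of the 131 lower ones (29.8%). CDK13, a transcription-coupled cyclin-dependent kinase, was the lowest of them, with 1510 and 620 on 232266_x_at (-1.26), while its other 3 expressed probe sets differed by -0.23 to -0.05. NLN, a metallopeptidase of neuropeptides, read 851 and 431 on 234762_x_at (-0.95), and its other 4 expressed probe sets lay between -0.09 and 0.15. DLGAP4, a postsynaptic scaffold, was at -0.94 on 233056_x_at and between -0.55 and 0.01 on 5 others. ZNF721 and ZNF160, both zinc finger genes of large families with similar sequences, were at -0.99 and -0.90 on _x_at probe sets and at -0.20 and -0.21 on their other one.

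Genes with a probe set of another kind showed how far this went. Of the 39 genes, 28 had one, and its median difference was -0.20 against -0.80 on the _x_at probe set. It was lower in 19 of the 28 and at least 1.5-fold lower in 3. The 92 lower genes not read by _x_at had another expressed probe set in 57 cases, with a median of -0.42, lower in 52 and past 1.5-fold in 20. What the _x_at probe sets of Lu139 hybridise with was not tested. A gene known only from such a probe set, as MEIOC at 134 and 62.4 (-0.92), is therefore given as a probe set value.

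MALAT1, a long noncoding RNA of nuclear speckles with many probe sets, had the widest range over its probe sets of all expressed genes, 1.85, and both directions. On 224567_x_at it read 4427 after siNTC and 2423 after siTTF-1, a difference of -0.86. Of 12 expressed probe sets, 11 were lower, by -0.90 to -0.02, and 1, 224559_at, was higher, with 157 and 321 (0.95). In NCI-H209 all 12 were higher, with 0.54 on the brightest. Transcript parts or other RNAs that these probe sets share were not examined.

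Probe sets of 1 gene share the same 2 RNA samples, so their agreement describes the measurement and not the repeatability of the knockdown. Over 6850 genes with a second expressed probe set, the brightest and the next pointed the same way in 67.3%. The SD of their gap was 0.187, which is 0.132 per probe set, with Pearson's r of 0.547 and Spearman's rho of 0.510 across genes, which are no independent replicates. Of the 104 such genes past 1.5-fold on the brightest, 89 had the next pointing the same way, or 85.6% (exact 95% interval 77.3 to 91.7, for counting error only). Of 3129 genes with at least 3 expressed probe sets, 662 were lower on all and 629 higher on all. In 22 of the former and in 0 of the latter the median was past 1.5-fold. The 10 lowest by median included LIFR, PCDH17, TMEM38B, SLIT2 and THSD7A. The highest median was that of FKBP11, a peptidyl-prolyl isomerase of secretory cells, with 0.47. FRMD3, which encodes a FERM domain protein, followed with 0.44, at 427 and 676 on its brightest probe set, and SLCO3A1, an organic anion transporter, with 0.43. NQO1, the quinone reductase that NRF2 induces, and ATF3, a stress-induced transcription factor, were higher on 3 of 3 probe sets, with medians of 0.39 and 0.38.

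**Figure D3:**
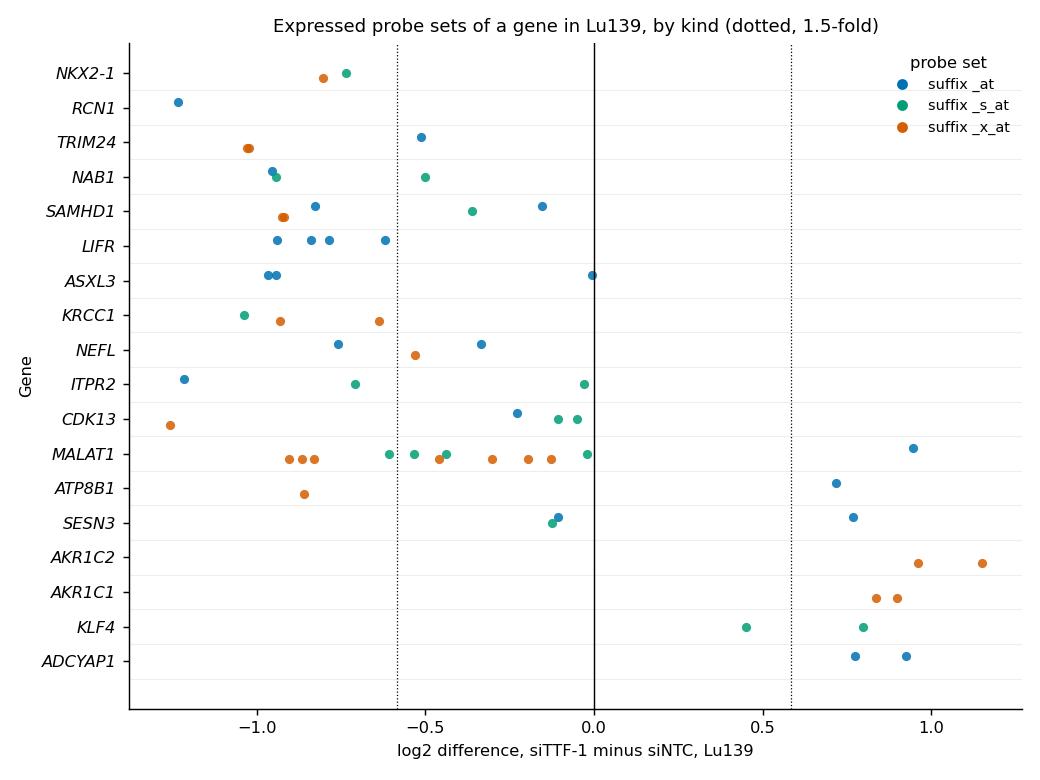
Log2 difference in Lu139 (horizontal axis) of every expressed probe set of 18 genes, coloured by the suffix of the probe set's name, with dotted lines at 1.5-fold. TRIM24, LIFR and SAMHD1 have all points left of 0, CDK13 has 1 orange point at -1.26 apart from the rest, and MALAT1, ATP8B1 and SESN3 have points on both sides.

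The higher genes were fewer and the differences smaller. CDKN1A, the gene of p21, which halts the cell cycle by blocking cyclin-dependent kinases, was alone past 2-fold among the higher genes, with 329 after siNTC and 681 after siTTF-1, a difference of 1.01 in Lu139 and 1.67 in NCI-H209. WASF3, an activator of the ARP2/3 complex in actin assembly, read 296 and 598, a difference of 0.97 against 1.21. SYBU, which links syntaxin-carrying vesicles to kinesin, read 195 and 375 (0.89 against 0.79). REEP3, which shapes the endoplasmic reticulum, read 245 and 445 (0.82 against 1.22), and AQP3, a channel for water and glycerol, read 96.6 and 178 (0.77 against 1.66). These genes were higher in both lines, with 1 expressed probe set each except AQP3, whose other probe sets in Lu139 were higher by 0.19 and 0.20.

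Other higher genes of Lu139 had smaller differences in NCI-H209. KISS1R, the receptor of kisspeptin, read 515 and 1008, a difference of 0.94 against 0.35. ADCYAP1, which encodes the neuropeptide PACAP, read 380 and 739 (0.93 against 0.20), and its second probe set read 199 and 354 (0.77). Its receptor gene ADCYAP1R1, given above at 0.48, did not reach 1.5-fold. C2CD4A was at 187 and 362 (0.88 against 0.02). HSPA6, an inducible heat shock protein, was at 144 and 274 (0.85 against 0.19), with 0.71 on its second probe set. KLF4, a zinc finger factor of epithelial differentiation, read 233 and 419 (0.80 against 0.49). CALB2, the calcium buffer calretinin, read 161 and 281 (0.74 against 0.13). No test of the difference between the lines was possible.

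CDKN1A is shown because its window holds CTTGAG, the reverse complement of the core CTCAAG, in capitals, at chr6:36678464-36678713, plus strand.
CDKN1A: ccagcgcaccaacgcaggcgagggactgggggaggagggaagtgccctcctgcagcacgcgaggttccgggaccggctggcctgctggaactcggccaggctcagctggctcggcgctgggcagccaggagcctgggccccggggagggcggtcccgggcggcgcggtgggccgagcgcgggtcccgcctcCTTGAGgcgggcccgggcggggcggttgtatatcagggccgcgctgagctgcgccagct

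The largest group of neighbouring higher genes was that of the aldo-keto reductases AKR1C1, AKR1C2 and AKR1C3, enzymes that reduce steroids and prostaglandins. AKR1C1 read 792 after siNTC and 1492 after siTTF-1 (0.90), AKR1C2 read 624 and 1232 (0.96), and AKR1C3 read 192 and 343 (0.78). In NCI-H209 the differences were 0.39, 0.38 and 0.56. All expressed probe sets of AKR1C1 and AKR1C2 were of the kind _x_at, and their transcripts are nearly identical, so the share of each in these values is uncertain. AKR1C3 has its own _at probe set. Of 8 expressed members of the wider family, 7 were higher, where 57.7% of all expressed genes were. The 3 past 1.5-fold were these AKR1C genes, where 0.193% of all expressed genes were that much higher. The family list was chosen with earlier results known, so these shares are a description and no separate support. AKR1C1 and AKR1C2 can share signal, so they are not separate counts. The median of the family was 0.18 against 0.03 over all expressed genes.

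The upstream windows of AKR1C1 and AKR1C2 are printed because they show how alike the pair is. In an alignment, 245 of 250 bases were identical (98.0%), in 1 unbroken run, since the annotated starts are offset, and the capitals mark the 5 bases of each window that the other does not share. With AKR1C3, AKR1C1 shared 186 bases (74.4%). The windows are at chr10:4963165-4963414, plus strand, and at chr10:5003858-5004107, minus strand.
AKR1C1: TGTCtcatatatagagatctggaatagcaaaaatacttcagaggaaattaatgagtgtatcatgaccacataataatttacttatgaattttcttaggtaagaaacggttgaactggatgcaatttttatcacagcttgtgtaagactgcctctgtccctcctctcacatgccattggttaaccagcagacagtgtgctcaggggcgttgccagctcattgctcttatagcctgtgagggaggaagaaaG
AKR1C2: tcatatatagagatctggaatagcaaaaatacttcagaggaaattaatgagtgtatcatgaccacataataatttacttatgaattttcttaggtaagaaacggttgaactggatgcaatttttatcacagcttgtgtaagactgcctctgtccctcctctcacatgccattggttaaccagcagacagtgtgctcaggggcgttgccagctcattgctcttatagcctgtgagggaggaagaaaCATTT

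Lists of cell cycle and DNA genes had more lower than higher members, with small differences, where 40.7% of all expressed genes had any lower value and 0.936% were 1.5-fold lower. These lists were chosen with earlier results known. Of 40 expressed genes of mitosis and the G2/M transition, 30 were lower and 10 higher, with a median of -0.09, and 1 was past 1.5-fold, BIRC5. ASPM, a spindle pole protein, read 2082 and 1564 (-0.41), and MKI67, the proliferation marker Ki-67, read 504 and 390 (-0.35). CDC25C, the phosphatase that activates CDK1, read 248 and 189 (-0.36) on its brightest probe set. Of its 3 expressed probe sets 2 were lower and 1 was higher, by 0.27. CENPF and HMMR, of the kinetochore and the spindle, had -0.31 and -0.24. Of 41 expressed DNA replication genes, 29 were lower (median -0.06). GINS4 of the helicase complex was at -0.36, but at 0.12 on its other expressed probe set. POLA1, the primase-linked polymerase, was at -0.34 and MCM2 at 0.01. Of 11 expressed histone genes, 10 were lower (median -0.21), led by H1-2 at -0.42 and H2BC12 at -0.37. Homologous recombination genes were lower in 17 of 23 (median -0.05), and XRCC2, a gene of DNA repair, was the 1 past 1.5-fold, at 154 and 89.3 on an _x_at probe set. The 4 medians kept their sign in the 11 other settings, but not always their size. That of the histones ranged from -0.25 to -0.0071, the latter without _s_at and _x_at probe sets, and was -0.088 with the mean of all probe sets of a gene. That of homologous recombination ranged from -0.081 to -0.034. In NCI-H209 they were -0.18, -0.17, -0.18 and -0.19.

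CDKN1A stood apart from the lists it belongs to. Among 7 expressed inhibitors of cyclin-dependent kinases the other 6 lay between -0.11 and 0.07 on their brightest probe sets. CDKN1B, which encodes p27, was at 3208 and 3373. CDKN1C read 38.6 on both arrays, while its 2 other expressed probe sets were higher, by up to 0.20. The second probe set of CDKN2B was at -0.23. Of 20 expressed p53 target genes, 12 were higher and 8 lower (median 0.04, which turned to -0.07 under another choice of probe sets). MDM2, the ubiquitin ligase of p53, was at 0.13, GADD45A at 0.28, and ZMAT3 and CCNG2 were at -0.52 and -0.46. G1 cyclin and RB pathway genes had a median of 0.07, with RBL1 at -0.38.

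A promoter element of late cell cycle genes was searched in the same windows. This element, the cell cycle homology region, has the core TTTGAA. On either strand it was found in 1345 of the 11200 genes expressed in Lu139 and in 16.1% of all 27305 genes in the table. It was in 18 of 105 lower genes (17.1%) and 1 of 21 higher genes (4.76%). Of the lower genes not read by _x_at, 17 of 73 held it (23.3%). These differences were not tested. In the mitosis list 22 of 35 genes in the table held it (62.9%). That share describes a list of late cell cycle genes and not the knockdown. ASPM and CDC25C are shown as 2 members of the list, with the element in capitals, as TTCAAA on the opposite strand of ASPM. The windows are at chr1:197146670-197146919, minus strand, and at chr5:138331805-138332054, minus strand, the latter for 1 of 4 annotated starts. A match is a description of the letters and not a bound site.
ASPM: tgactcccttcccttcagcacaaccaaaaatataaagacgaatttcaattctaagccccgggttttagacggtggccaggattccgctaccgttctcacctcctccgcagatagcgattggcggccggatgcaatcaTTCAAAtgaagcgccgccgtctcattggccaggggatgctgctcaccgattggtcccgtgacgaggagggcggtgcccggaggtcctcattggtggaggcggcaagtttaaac
CDC25C: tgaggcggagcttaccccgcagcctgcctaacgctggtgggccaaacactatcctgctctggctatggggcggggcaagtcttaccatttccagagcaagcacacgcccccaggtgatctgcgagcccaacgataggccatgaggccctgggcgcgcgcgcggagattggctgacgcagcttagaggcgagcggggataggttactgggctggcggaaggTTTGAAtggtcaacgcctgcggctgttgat

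The TTF-1 core was searched in the same way, as CTCAAG and as CAAGTG on both strands, which share the letters CAAG and can overlap. CTCAAG was in the windows of 16 of 105 lower genes in the table (15.2%) and 1 of 21 higher genes (4.76%), against 1340 of 11200 expressed genes. CAAGTG was in 14 lower (13.3%) and 3 higher genes (14.3%), against 10.4%. The shares among lower genes were near those of all expressed genes, and the absence of a match in 250 bases shows only that these letters are not in this window.

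Lung genes known to depend on TTF-1 did not have a lower median as a group. Of 24 listed, 14 were expressed in Lu139, of which 10 were higher and 4 lower, with a median of 0.13 and none past 1.5-fold, where 57.7% of all expressed genes had any higher value. Their summed intensity was 8722 after siNTC and 8506 after siTTF-1. Some higher members were dim, as SELENBP1 at 34.2 and 42.0 and NAPSA at 55.3 and 69.6. The dimmest brightness group of all expressed genes had a median of 0.08. SFTPB, which encodes surfactant protein B, read 233 and 225 (-0.04), and SFTPC read 198 and 229 (0.19), with a median of 0.07 over its 5 expressed probe sets. LAMP3, a lamellar body protein, was the lowest at -0.33, and ROR1, a receptor tyrosine kinase, the highest at 0.28. Among lung and foregut factors NFIB, which is amplified in some small cell lung cancers, read 701 and 476 (-0.54), and CEBPB read 1280 and 1906 (0.57). The partners FOXA1 and FOXA2 were at 0.03 and 0.20.

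Neuroendocrine genes lay in both directions. INSM1 was at 4750 and 4742, and the 20 expressed neuroendocrine factors had a median of 0.01, which turned to between -0.02 and -0.01 when the arrays were scaled in other ways. At least 1.5-fold lower were 2 of the 20, where 0.936% of all expressed genes were. This list was chosen with earlier results known. RUNX1T1, a corepressor of the ETO family, was at 1656 and 977 (-0.75), lower on 5 of 6 probe sets. ISL1, a LIM homeodomain factor of neurons and endocrine cells, was at 725 and 467 (-0.61). RUNX1T1 was lower in NCI-H209 too (-0.66), and ISL1 was at 0.19 there. DDC, the decarboxylase of dopamine and serotonin synthesis, read 6280 on both Lu139 arrays, against 5574 and 2197 in NCI-H209 (-1.34). Granin and prohormone genes had a median of -0.02, with CHGA at 0.30 and CPE, the carboxypeptidase of prohormones, at -0.27. Neuropeptides and their receptors were higher in 20 of 23 expressed members and lower in 2, with a median of 0.13, where 57.7% of all expressed genes had any higher value. Of the 23, KISS1R and ADCYAP1 were the 2 past 1.5-fold, where 0.193% of all expressed genes were that much higher. The neuropeptide list, too, was chosen with earlier results known. GRP, the bombesin-like peptide of small cell lung cancer, read 2786 and 3688 (0.40), against -0.51 in NCI-H209. Of 27 expressed genes of neuronal cytoskeleton and adhesion, 3 were at least 1.5-fold lower, where 0.936% of all expressed genes were. These were MAP7D2, NEFL and the adhesion molecule NTM, at 305 and 171 (-0.77). The 3 expressed probe sets of NTM ranged from -0.77 to -0.08, with a median of -0.46, which is under 1.5-fold. The list was chosen with earlier results known, and its median was -0.09. MAP7, a relative of MAP7D2, was at 122 and 186 (0.54).

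The list of calcium handling in the endoplasmic reticulum held 3 genes at least 1.5-fold lower, RCN1, ITPR2 and TMEM38B, of 24 expressed, where 0.936% of all expressed genes were. It was chosen with earlier results known, and its median was below 0.01 in size, with the other 21 members within 1.5-fold. ITPR1 and ITPR3, the other inositol trisphosphate receptors, were at -0.06 and 0.22. Within the TIF1 and TRIM list TRIM24 was the 1 gene past 1.5-fold, with TRIM28 at 0.03 and TRIM33 at -0.10. Actin regulators of the WAVE list had WASF3 at 0.97 and FGD3, an exchange factor for CDC42, at 321 and 167 (-0.87), with a median of 0.00. FGD4 and FGD6 were at -0.39 and -0.43. KCND2, a potassium channel subunit of A-type currents, was at 193 and 113 (-0.68), the 1 member past 1.5-fold of the 23 expressed in the list of potassium, calcium and sodium channels.

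Among all expressed genes 57.7% had any higher value and the median was 0.03, against which the next lists are to be read. They were also chosen with earlier results known. Of 40 expressed genes of the ATF4 and unfolded protein responses, 26 were higher (median 0.09), led by TRIB3, a pseudokinase, at 793 and 1280 (0.68), CEBPB at 0.57, ERN1 at 0.56 and DDIT3, which encodes CHOP, at 780 and 1118 (0.51). ATF6, a sensor of the same response, was at 598 and 408 (-0.53). NRF2 targets were higher in 18 of 23 (median 0.11), with HMOX1 at 0.41 and NQO1 at 0.39. Immediate early genes were higher in 27 of 32 (median 0.12), with KLF4 at 0.80 and the corepressor NAB1 at -0.95. Genes of sterol and lipid synthesis were higher in 16 of 22 (median 0.16), with the elongases ELOVL2 and ELOVL4 the lowest at -0.92 and -0.34. Oxidative phosphorylation was higher in 30 of 37 (median 0.08), and cytosolic ribosome genes in 18 of 24 (median 0.04). These 6 medians kept their sign in the 11 other settings, within 1.2-fold of control, and the smallest values they took were 0.070 for the ATF4 list, 0.080 for NRF2 targets, 0.075 for immediate early genes, 0.098 for sterol synthesis, 0.050 for oxidative phosphorylation and 0.010 for ribosome genes. All the lists together include 22 of 40 whose median was above that of all expressed genes, 0.03.

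Metallothioneins, zinc and copper binding proteins, were listed after their values were seen. All 8 expressed members had a higher value in Lu139, as did 57.7% of all expressed genes, and 1 of the 8, MT1X, was past 1.5-fold. Their median was 0.54, and in NCI-H209 it was -0.27. MT1X read 1923 and 2955 (0.61 against -0.15), MT2A read 2898 and 3923 (0.43 against -0.24), and 7 of the 8 were read by _x_at probe sets, which can share transcripts of this family.

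**Figure D4:**
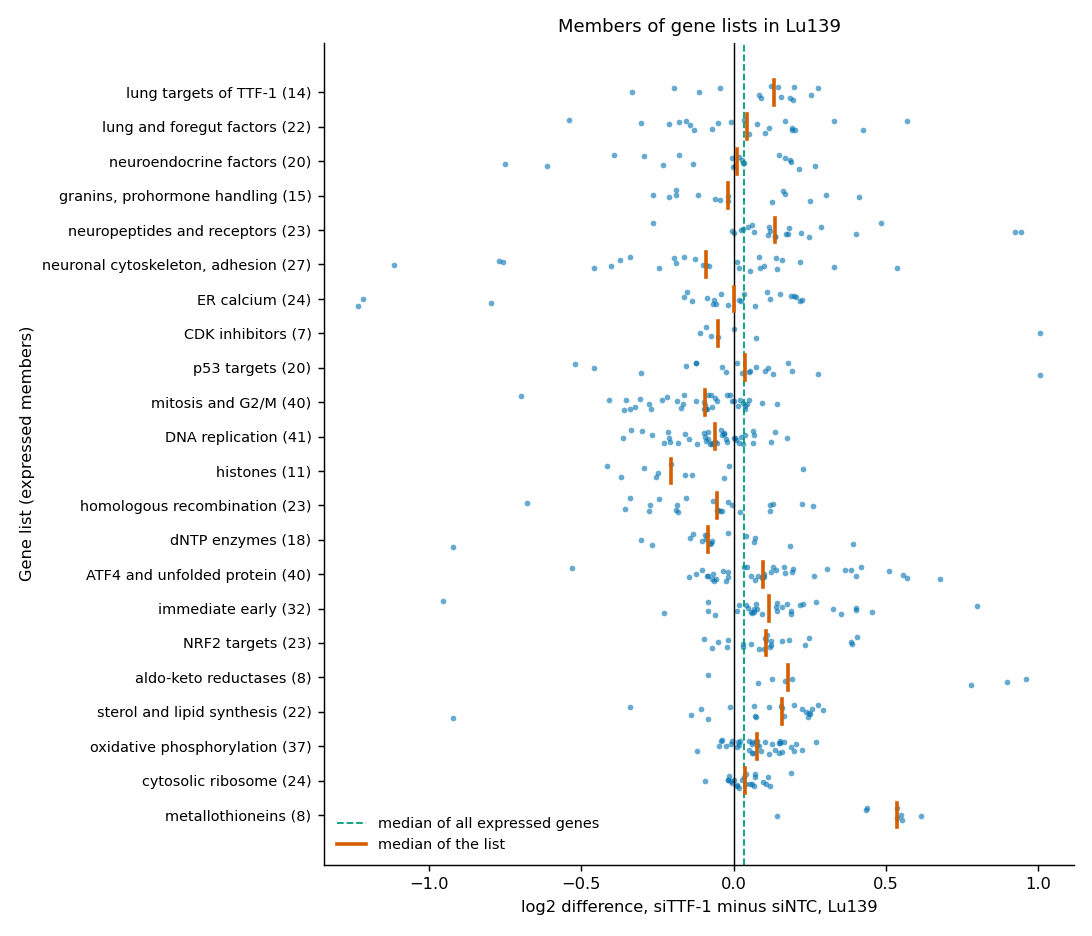
Log2 difference in Lu139 (horizontal axis) of the expressed members of 22 gene lists, 1 blue point per gene with vertical jitter, the median of each list as an orange bar and the median of all expressed genes as a dashed green line. Most medians lie within 0.2 of 0, histones lie at -0.21 and metallothioneins, a list made after the values were seen, at 0.54.

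Set beside NCI-H209, the lower genes of Lu139 differed by how they were read. Of the 131, 50 (38.2%) were also at least 1.5-fold lower in NCI-H209, where they made up 9.71% of 515. Of the 27 higher genes, 6 (22.2%) were also past 1.5-fold there, 3.77% of 159. The share of NCI-H209 genes past that limit was 3.52% and 1.09%. Lower genes not read by _x_at had a median of -0.67 in NCI-H209 over 77 genes expressed there, and 44 of the 92 (47.8%) were past 1.5-fold in both. Those read by _x_at had a median of -0.02 over 37 genes, and 6 of 39 (15.4%) were past it in both, among them TRIM24, KRCC1 and SAMHD1.

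**Figure D5:**
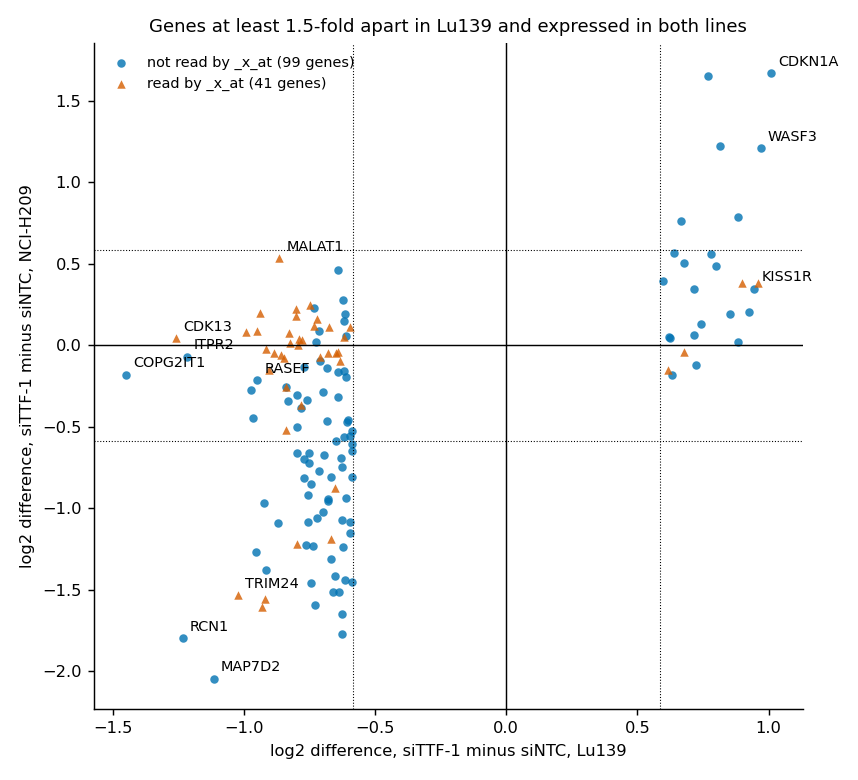
Log2 difference in NCI-H209 (vertical axis) against that in Lu139 (horizontal axis) for the genes at least 1.5-fold apart in Lu139 and expressed in both lines, with genes read by _x_at probe sets as orange triangles. On the left, blue points reach down to -2.04 at MAP7D2, while most orange triangles lie near 0 on the vertical axis, and CDKN1A and WASF3 are high in both.

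Some of the widest gaps between the lines came from genes with little difference in Lu139. MAF, a leucine zipper factor, read 40.8 and 40.6 in Lu139 against 41.6 and 199 in NCI-H209 (1.85). GPR137B, a lysosomal membrane protein, was at -0.14 against 1.29, and GPNMB, a glycoprotein of lysosomes and melanosomes, at -0.06 against 1.02. FN1, which encodes fibronectin, was at -0.07 against -1.18, and HHIP, an antagonist of hedgehog signalling, at 0.15 against -1.14. TRPA1, an irritant-gated ion channel, had the same direction and different sizes, with 73.3 and 44.7 in Lu139 (-0.54) against 571 and 163 in NCI-H209 (-1.70). OPTN, an autophagy receptor, was at -0.37 against -1.59.

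Genes past 1.5-fold that neighbour each other in the RefSeq gene order were few. Besides the AKR1C genes these were SLC25A24 and EEIG2 (-0.63 and -0.68), MFSD6 and NAB1 (-0.76 and -0.95), and ELOVL2 with its antisense gene ELOVL2-AS1 (-0.92 and -0.71). Without the strand of the labelled RNA in the sources, an antisense pair can share signal. RASEF and its neighbour FRMD3 lay on opposite sides, at -0.95 and 0.64.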

How the data were processed

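Total RNA of electroporated Lu139 and NCI-H209 cells, extracted with a column kit, was turned into biotinylated cRNA for Affymetrix arrays, per the labels' protocols. The authors deposited 1 linear intensity per probe set and array, and the submitters' processing notes name Affymetrix Expression Console. The sources used here name no software version, summarisation method, scaling or build. On the Lu139 arrays 2206 probe sets were exactly equal. Summarisation and scaling can set small differences, so folds are described and not tested.

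Of 54675 probe sets, 62 controls were left out, and 41091 had exactly 1 gene symbol in the platform annotation, 1801 several and 11721 none. Through the RefSeq gene table of GRCh38.p14, 41037 were matched, for names and neighbours. A gene's value was its probe set with the highest mean over the 4 arrays. Median intensities of the Lu139 arrays were 48.4 and 49.6.

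The lists and the genes to describe were chosen with earlier results of these data known. Genes were named by rule, which covers NKX2-1, the 20 lowest and 20 highest, per list the 4 largest differences and the first 3 members, genes with 3 or more agreeing probe sets, the widest ranges over probe sets, genes expressed in Lu139 only, those beside the 2-fold limit and the widest gaps between lines. Other names (the marker genes below the limit, MT1X and MT2A, and the neighbours) were chosen after their values were seen. Of the 131 lower genes 105 and of the 27 higher genes 21 had a promoter in the RefSeq table. Other settings were tried for the pseudocount, scaling, gene value and limit. The counting was tried on simulated arrays in which every probe set of a changed gene held the same change. Probe sets that disagree or hybridise with other transcripts were not simulated. Python 3.11.15, pandas 2.3.3, numpy 2.4.6, scipy 1.17.1, Biopython 1.88 and matplotlib 3.10.9 were used.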

Additional observations from a re-analysis of the deposited data

Results flagged for a closer look

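The results here are genes at least 1.5-fold apart in Lu139 whose difference in NCI-H209 had the opposite sign and was over 1.2-fold. With 1 array per group the difference between the lines was not tested. MALAT1 differed by -0.86 in Lu139 and 0.54 in NCI-H209, a gap of -1.40. LOC389834 differed by -0.64 and 0.46, a gap of -1.11, and its second expressed probe set in Lu139 by 0.01. LOC100190986 differed by -0.62 and 0.28, a gap of -0.90.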

How the results depend on the processing

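No paired analysis was possible because each group held 1 array. The 1.5-fold lower count of 131 ranged from 53 to 153 and the higher count of 27 from 14 to 48 over 11 other settings. The mean of all probe sets of a gene gave 53 lower and 14 higher genes at 1.5-fold and 3 lower at 2-fold. Halving the pseudocount gave 10 lower at 2-fold and 41 higher at 1.5-fold, and quantile normalization over the 4 arrays gave 48 higher. At 2-fold, 0 genes were higher with the pseudocount doubled, with median centring or without _s_at and _x_at probe sets, and 2 with either quantile normalization, the second being WASF3. Leaving out _x_at probe sets, a setting chosen after seeing the data, left 98 lower genes, 97 of them among the 131. RCN1, MAP7D2 and COPG2IT1 stayed past 2-fold in all 11. CDK13 ranged from -1.28 to -0.11 and ITPR2 from -1.38 to -0.59. Among genes with smaller differences, CDC25C ranged from -0.39 to 0.27. The causes were not tested. ATP8B1 (0.72) reversed to -0.071 with the mean of all probe sets and to -0.86 with the probe set brightest in Lu139, DLGAP4 to 0.012 and MALAT1 to 0.95 without _s_at and _x_at probe sets. NKX2-1 lay between -0.77 and -0.71, with no value without _s_at and _x_at probe sets, and the share of agreeing second probe sets between 78.6% and 89.5%.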
